A study of Canis lupus familiaris with 13 samples.

Results

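Heart tissue of 3 Dobermans with dilated cardiomyopathy was compared with heart tissue of 3 paced mongrels, which made 6 of the 13 samples of the study, each measured on 1 Affymetrix canine array. The samples were taken by their titles, which name breed and condition, and all 23836 probe sets that are not array controls entered the comparison. The Dobermans are named K, L and R and the paced mongrels LV01, LV02 and LV04. The other 7 arrays, from 3 control mongrels (P1, P4 and P9) and 4 Boxers with dilated cardiomyopathy, served to estimate the spread between samples and to show where a level lay. All RNA was total RNA from heart; the labels did not name the chamber, the age or sex of the dogs, or the rate and length of pacing. The diseased samples were all Dobermans and the paced samples all mongrels, with no paced Doberman and no healthy Doberman, so breed and the cause of heart disease cannot be told apart. No label says that samples of a group came from different dogs. Unless stated otherwise, p-values for genes rest on the spread within groups pooled over all 13 arrays, which may in part be technical.

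Dilated cardiomyopathy of Dobermans is an inherited disease in which the left ventricle widens, contracts weakly and is prone to rhythm disturbances. Fast pacing through an electrode makes a healthy heart fail within weeks and is a common way of producing heart failure in dogs. The adult heart draws most of its energy from fatty acids burned in mitochondria, and failing hearts are known to turn to genes of the fetal programme, to stress genes and to matrix remodelling. The comparison describes how heart samples of Dobermans with dilated cardiomyopathy and of paced mongrels differ in signal.

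The 6 arrays were not alike in quality. The ratio of signal at the 3′ end to that at the 5′ end of the GAPDH control transcript, which rises with the loss of intact RNA, read 2.10 for Doberman L, 3.62 for R and 1.08 for K, against 0.967 to 1.09 for the remaining 10 arrays. The exact permutation test of the 3 Dobermans against the 3 paced samples gave p = 0.1, two-sided, which is the smallest it can give (0.167 adjusted over 5 array measures). Median signal, in MAS5 units, was 234 for L, 219.7 for R and 160 for K, and 208 to 219 in the paced samples. Against these levels, the controls had medians of 143 to 146 and the Boxers 132 to 146. Signals of an array correlated with those of its own group at a mean r of 0.866 to 0.886 in the Dobermans and 0.950 to 0.953 in the paced samples, across probe sets, which are not independent. Doberman K correlated at 0.866 with L and R, at 0.866 with the paced samples and at 0.940 with the controls. For L and R, r was 0.792 and 0.805 with the paced samples and 0.830 and 0.859 with the controls. The median standard deviation of a probe set was 0.506 log2 units in the Dobermans, 0.224 in the paced samples, 0.230 in the controls and 0.217 in the Boxers. The pooled spread is thus smaller than that of the Dobermans for a typical probe set, so standard errors and p-values may be too small. Results are therefore given for the 3 Dobermans and again for K alone, without L and R. MYH7, MYL2, TNNT2, TNNI3 and ACTC1, defining genes of heart muscle, lay above the 99.6th percentile of signal on every one of the 13 arrays.

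**Figure D1:**
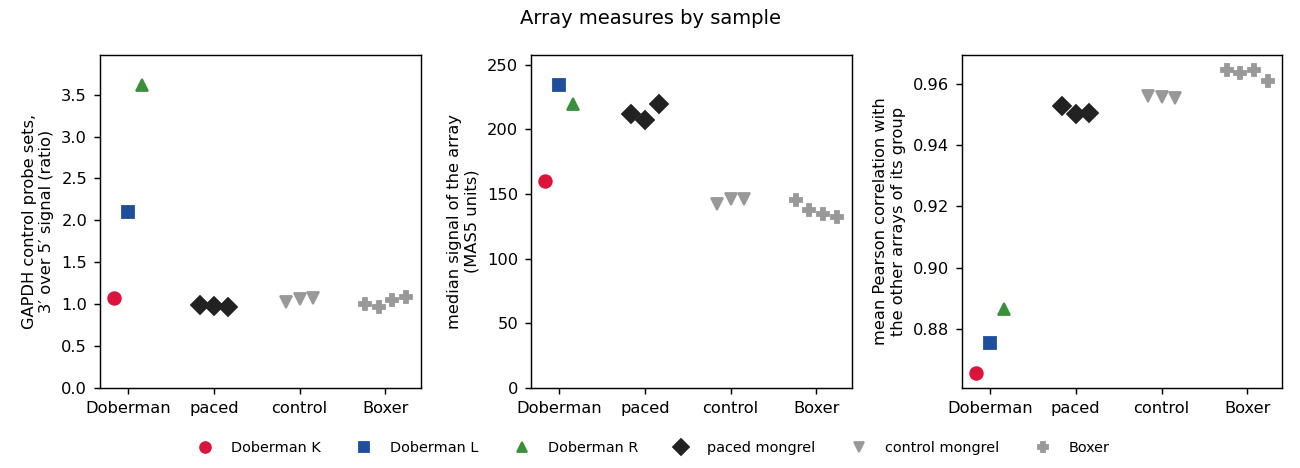
Each point is 1 array; the panels plot the ratio of GAPDH 3′ to 5′ signal, the median signal in MAS5 units and the mean Pearson correlation with the other arrays of the same group. Dobermans L and R stand apart with GAPDH ratios of 2.10 and 3.62, K lies with the other arrays at 1.08, and the paced samples share the high median signals of L and R.

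Signals were compared as log2(signal + 16), so a change is given on that scale, as Dobermans minus paced mongrels, and it understates the change of dim genes. Of 14302 probe sets tested in limma, 3514 (24.6%) passed an adjusted p of 0.05, with 1863 higher and 1651 lower in the Dobermans, and 5558 had an unadjusted p under 0.05. After quantile normalization, which gives every array the same distribution of signals, 2265 were higher and 2073 lower, and 3407 had the same call on both scales. After centring each array on its median, the split was 2305 higher and 1126 lower. With each gene represented by its brightest tested probe set, 708 of 5242 genes (13.5%) rose and 579 (11%) fell as deposited, and 787 (15%) rose and 754 (14.4%) fell after quantile normalization. In Doberman K alone against the paced samples, 426 genes (8.13%) were called higher and 357 (6.81%) lower, under the assumption that a lone sample varies like the other groups. Calls over 3 Dobermans and calls in K share Doberman K and the paced arrays, so agreement between them is in part built in. The count of probe sets was 3281 higher and 2902 lower without K, and 1200 to 1228 higher and 921 to 956 lower without LV01, LV02 or LV04. In a fit of the 6 arrays alone, 112 of the 708 and 48 of the 579 genes passed, and 147 and 98 passed with the GAPDH ratio as a covariate. The median change over all genes was -0.01 as deposited, -0.02 after quantile normalization and 0.04 in K.

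Each called gene was also set against the 3 control mongrels. For 470 of the 1287 called genes every Doberman lay on one side of every control while the paced samples overlapped the controls. For 379 genes the paced samples stood off the controls and the Dobermans overlapped them. Both groups lay off the controls on the same side for 101 genes and on opposite sides for 140, and 197 genes had neither group off the controls. These counts are a description and were not tested. The same shares over all 5242 tested genes are not given here, so the counts cannot be read as particular to called genes.

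UCHL1, CLU, CDKN1A, PTGR1 and MT2A were bright genes that were higher in all 3 Dobermans. They and the bright genes of the next paragraph are 11 of the 12 largest of 130 higher genes with a mean signal of at least 366. Those 130 passed on both scales, over the 3 Dobermans and in K, with every Doberman above every paced sample on both scales. Passing in K and the lack of overlap were thus conditions of the choice, which was made after values were seen. In the values that follow, 3 signals are given in the order K, L and R for the Dobermans and LV01, LV02 and LV04 for the paced mongrels. UCHL1, an enzyme that removes ubiquitin and is abundant in nerve cells, had signals of 7583, 6262 and 4316 in the Dobermans and 1169.8, 738 and 512 in the paced samples. Every Doberman lay above every paced sample and every control (803 to 2264), and the 4 Boxers overlapped the Dobermans at 2747 to 5442. The change of UCHL1 was 2.92 ± 0.39 (SE, adjusted p = 0.000415), or 7.59-fold, and in K it was 3.29 (adjusted p = 0.00291). CLU, which encodes the secreted chaperone clusterin, had signals of 13149.8, 12089 and 9493 in the Dobermans and 4108, 1926 and 951 in the paced samples. The Dobermans were all above the highest paced sample, with a change of 2.54 ± 0.38 (SE, adjusted p = 0.000925), while the controls lay between 1578 and 1809.8. CDKN1A encodes p21, which halts the cell cycle under stress, and had signals of 5143, 5671 and 3840.3 in the Dobermans and 1811, 1026 and 494 in the paced samples. The lowest Doberman was above the highest paced sample, and the change of CDKN1A was 2.29 ± 0.45 (SE, adjusted p = 0.00412). PTGR1, an enzyme that breaks down prostaglandins, had signals of 2693, 2697 and 3814 in the Dobermans and 784, 845 and 497 in the paced samples, again without overlap, and changed by 2.10 ± 0.28 (SE, adjusted p = 0.000432). MT2A, a metallothionein that binds zinc and copper, had signals of 7954, 3317 and 3175 in the Dobermans and 912, 557 and 838 in the paced samples, and Doberman K was the highest. The change of MT2A was 2.51 ± 0.67 (SE, adjusted p = 0.0171) and both of its other tested probe sets were also higher, but it did not pass without LV02 (adjusted p = 0.0624).

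In a second set of bright genes the paced samples lay below all controls. SREBF1, a transcription factor of lipid synthesis, had signals of 658, 1034 and 1191 in the Dobermans and 86.2, 215 and 201 in the paced samples, with controls at 385 to 679. THRB, a receptor for thyroid hormone, had signals of 556, 1042 and 909 in the Dobermans and 96, 214 and 115 in the paced samples, with controls at 468 to 547. In both genes the lowest Doberman was above the highest paced sample, and the changes were 2.46 ± 0.32 (SE) for SREBF1 and 2.46 ± 0.30 for THRB, with adjusted p of 0.000381 and 0.000262 in limma. MCAT, which serves fatty acid synthesis inside mitochondria, had signals of 867, 1139 and 884 in the Dobermans and 96.2, 224 and 112 in the paced samples and changed by 2.69 ± 0.27 (SE, adjusted p = 0.000113). CLPB, a chaperone of mitochondria that takes aggregated protein apart, had signals of 1017, 419.8 and 1228 in the Dobermans and 148, 268 and 159 in the paced samples, and its controls lay at 939 to 1194. Its change was 2.04 ± 0.33 (SE, adjusted p = 0.00155), and 1 of its other 2 tested probe sets also passed as higher. PRMT7, an arginine methyltransferase, had signals of 1064, 1676 and 1512 in the Dobermans and 347, 195 and 335 in the paced samples. LCN15, a lipocalin, had signals of 764, 965 and 789.5 in the Dobermans and 209.9, 63.9 and 214 in the paced samples, with controls at 459.9 to 486. Neither gene overlapped between the groups, and they rose by 2.23 ± 0.28 (SE) and 2.41 ± 0.34, with adjusted p of 0.000301 and 0.000637 in limma. Each of the 6 genes of this paragraph and UCHL1, CLU, CDKN1A and PTGR1 passed with any 1 of the 6 compared arrays left out.

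**Figure D2:**
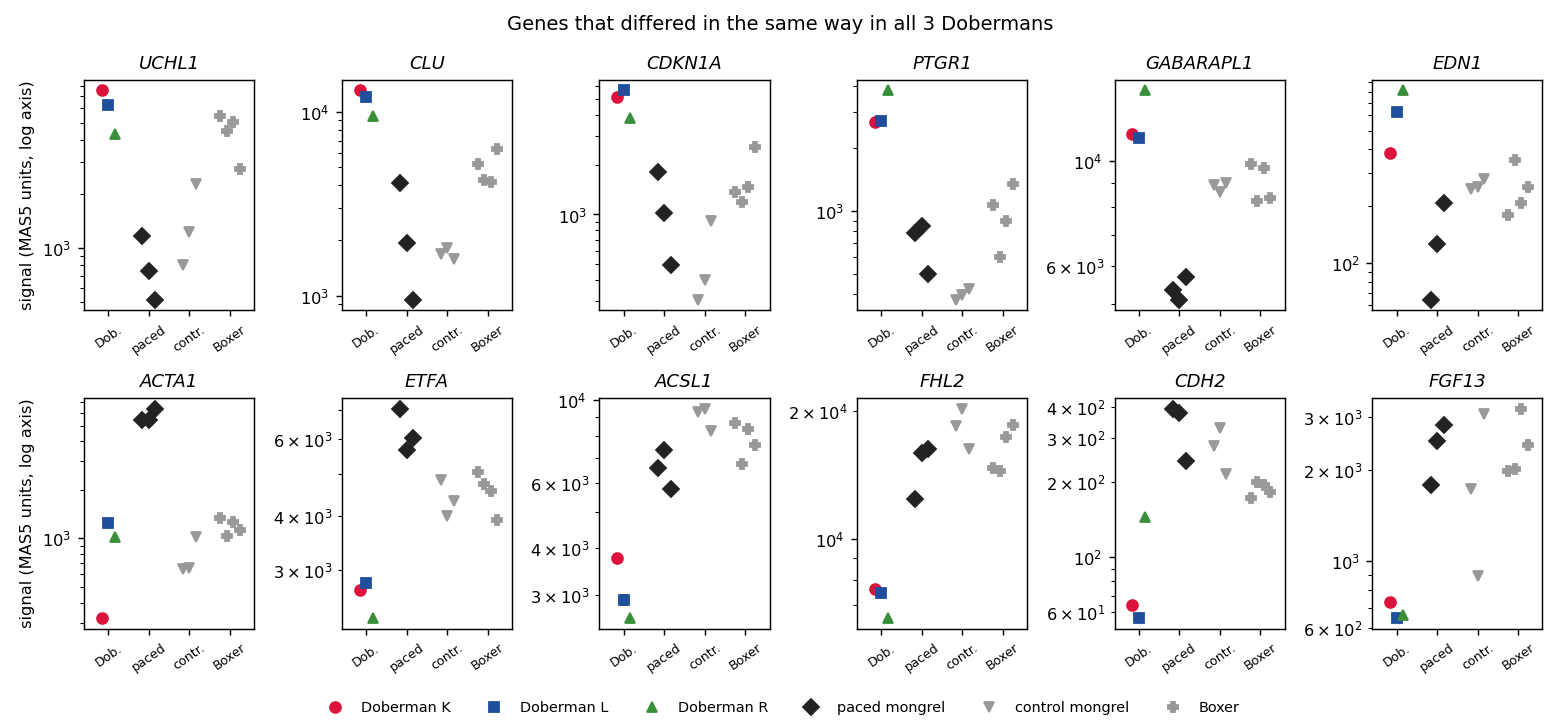
Signal of 12 genes on each of the 13 arrays, on a log axis in MAS5 units, with the 3 Dobermans in colour. In all 12 panels the 3 Dobermans lie beyond the 3 paced mongrels, above them for UCHL1 to EDN1 and below them for ACTA1 to FGF13.

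The 12 largest rises by log2 change all had a paced mean under 108, the signal below which probe sets were left out on average, so their size depends on the 16 units added; 11 of them are given here. MAP1A, which binds microtubules, had signals of 493, 1030.5 and 1016 in the Dobermans and 23.1, 17.6 and 21.8 in the paced samples. The paced samples lay below every control (132 to 168) and the Dobermans above them, and the change was 4.48 ± 0.34 (SE, adjusted p = 1.09e-05), and it was 5.21 with 1 unit added in place of 16 and 3.36 with 64. CD3E, a chain of the T cell receptor complex, had signals of 638, 1193 and 927 in the Dobermans and 26.3, 47.9 and 29.6 in the paced samples, with controls at 314 to 414. Here too the Dobermans lay above and the paced samples below all controls, with a change of 4.19 ± 0.30 (SE, adjusted p = 5.61e-06). MCAM, an adhesion molecule of vessel walls, had signals of 526, 861 and 738 in the Dobermans and 61, 42.1 and 109 in the paced samples and changed by 3.11 ± 0.28 (SE, adjusted p = 4.1e-05). C2, a complement component, had signals of 544, 272 and 513 in the Dobermans and 27.2, 51.6 and 21.1 in the paced samples, without overlap, and changed by 3.21 ± 0.40 (SE, adjusted p = 0.000284). The other rises given were CYP4A11, a cytochrome P450 that hydroxylates fatty acids, ADAMTSL3, a matrix glycoprotein, GYS2, the liver form of glycogen synthase, and CHKA, choline kinase. Also among them were ACBD4, an acyl-CoA binding protein, PBXIP1, a partner of PBX transcription factors, and PHRF1. These 7 changed by 2.98 to 3.38, with adjusted p of 0.000113 to 0.00644 in limma. Of all 708 genes that rose, 112 had a paced mean under that level, and of the 5242 tested 167 did. All 12 passed in K alone, but the choice had required every Doberman to lie above every paced sample.

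Skeletal muscle actin marked the paced samples rather than the Dobermans. ACTA1 had signals of 320.5, 1245 and 1021 in the Dobermans and 5389.8, 5372 and 6353 in the paced samples, against 645 to 1025 in the controls and 1034 to 1345 in the Boxers. The paced samples alone were high, and the change was -2.91 ± 0.37 (SE, adjusted p = 0.000361), or 7.5-fold lower in the Dobermans. A second probe set had signals of 391, 964 and 1016 in the Dobermans and 6501, 6465 and 7277 in the paced samples, and fell as well. Another had 844, 2009 and 1609 against 686, 801 and 569 and rose by 1.02 ± 0.30 (SE), and the last had 299, 552 and 230.1 against 1382, 910.1 and 1334 and fell, with controls above both groups. Actin genes are nearly identical in sequence, so which actin each probe set reports is uncertain. NKG7, a protein of cytotoxic granules in lymphocytes, had signals of 53.4, 76.3 and 106 in the Dobermans and 746, 581 and 556 in the paced samples, with controls at 102 to 114. It fell by 2.79 ± 0.39 (SE, adjusted p = 0.000593) on the log2 scale, and the paced samples lay above all other arrays. UBE2J1, an enzyme that marks faulty proteins of the endoplasmic reticulum with ubiquitin, and MIA3, which helps load collagen for export, showed the same order. UBE2J1 had signals of 111, 148 and 47.7 in the Dobermans and 719, 545 and 591 in the paced samples, and MIA3 had 67.1, 126 and 81.3 in the Dobermans and 452, 443 and 518 in the paced samples. Their controls lay at 153 to 186 and 169 to 205, so that every Doberman was below and every paced sample above them. Doberman means of NKG7, UBE2J1 and MIA3, and of FRAS1 and ASB12 among the falls described next, were under 108, so the size of these changes depends on the 16 units added. The Doberman mean was under that level for 63 of all 579 falls and 107 of the 5242 genes tested. For UBE2J1 and MIA3 the changes were -2.52 ± 0.32 (SE) and -2.21 ± 0.26, with adjusted p of 0.000301 and 0.000208 in limma.

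Among the other large falls the Dobermans differed in degree. DCHS1, a large protocadherin, had signals of 95.3, 255 and 9.6 in the Dobermans and 893, 596 and 871 in the paced samples, with paced samples above every control (171 to 207). FRAS1, a basement membrane protein, had signals of 167, 37.3 and 48.4 in the Dobermans and 469.6, 506 and 689.8 in the paced samples, and K was the highest Doberman. RCN1 and PDIA3, a calcium-binding protein and a folding enzyme of the endoplasmic reticulum, were far lower in L and R than in K. PDIA3 had signals of 727, 34.8 and 114 in the Dobermans and 1009.7, 867 and 1289 in the paced samples, and in K its change of -0.51 did not pass (adjusted p = 0.189). RCN1 had signals of 487, 45 and 72.3 in the Dobermans and 973, 1346 and 666 in the paced samples, and its change of -0.95 in K did not pass either (adjusted p = 0.0873). ASB12, part of a ubiquitin ligase, had signals of 137, 28.1 and 17 in the Dobermans and 228, 518 and 316 in the paced samples, and FUNDC1, a receptor for the removal of mitochondria, had 212, 11.4 and 107 in the Dobermans and 603, 560.2 and 386 in the paced samples. Over 3 Dobermans the changes were -3.11, -2.72, -2.64, -2.80, -2.53 and -2.51 in the order named here (DCHS1, FRAS1, PDIA3, RCN1, ASB12 and FUNDC1), with adjusted p of 0.00114 to 0.0112 in limma. Bright falls that also passed in K were chosen after their values were seen. The choice required every Doberman to lie below every paced sample on both scales. Among them was FGF13, which modulates sodium channels of heart muscle, with 735, 647 and 663 in the Dobermans and 1787, 2498 and 2828 in the paced samples. The change of FGF13 was -1.75 ± 0.35 (SE, adjusted p = 0.00411). PTGDS, prostaglandin D synthase, had signals of 1159, 445 and 142 in the Dobermans and 2364, 2292 and 2871 in the paced samples, and its other tested probe set fell too. CYP3A26, a drug-metabolizing cytochrome P450, PLCL1, a relative of phospholipase C, and NCEH1, which cleaves cholesterol esters, changed by -1.90, -1.86 and -2.13, with adjusted p of 0.000711, 0.00168 and 0.00403 in limma. FSD2, DAAM1, a formin that builds actin filaments, and HTATSF1, a splicing factor, changed by -1.86, -2.05 and -1.77, with adjusted p of 0.00109, 0.00204 and 0.0034 in limma.

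Among genes for burning fatty acids, several fell in the Dobermans and 0 rose. Of 23 tested genes of fatty acid uptake and oxidation (of 36 listed), 7 fell (30.4%, beside 11% of all genes) and 1 had an unadjusted p under 0.05 in the other direction in limma, with a median change of -0.61. By Doberman, the list's median stood at -0.30 (K), -1.08 (L) and -0.65 (R), beside GAPDH ratios of 1.08, 2.10 and 3.62. ETFA, which passes electrons from fatty acid oxidation to the respiratory chain, had signals of 2707, 2807 and 2328 in the Dobermans and 7049.8, 5678 and 6044 in the paced samples. All 3 Dobermans were low and close together, below the controls (3997 to 4832), and the change was -1.25 ± 0.16 (SE, adjusted p = 0.000414). ACSL1, which activates long fatty acids with coenzyme A, had signals of 3774, 2907 and 2599 in the Dobermans and 6581, 7338 and 5776 in the paced samples, with controls at 8269 to 9469, and changed by -1.09 ± 0.18 (SE, adjusted p = 0.00156). ACAT1, a mitochondrial thiolase, had signals of 3214, 986 and 1670 in the Dobermans and 7114, 8070.4 and 5534 in the paced samples, and K was the highest Doberman without reaching a paced sample. LPL, the lipase that frees fatty acids from blood lipoproteins, had signals of 1682, 384 and 494 in the Dobermans and 6083, 8129 and 3263 in the paced samples. The change of LPL was -2.96 ± 0.52 (SE, adjusted p = 0.00226), while its controls spread from 2102 to 7338. DECR1, a reductase needed for unsaturated fatty acids, had signals of 981, 259 and 44.9 in the Dobermans and 2818, 3221 and 2586 in the paced samples, ordered K, L, R from high to low. Its change was -3.49 ± 0.66 (SE, adjusted p = 0.00313), and its other 3 tested probe sets fell too. ETFA, ACSL1, ACAT1 and DECR1 also passed in K, with changes of -1.20, -0.79, -1.08 and -1.53, and LPL did not (-1.69, adjusted p = 0.0671). CD36, the fatty acid transporter, had signals of 3551, 45.6 and 679 in the Dobermans and 2048, 1774 and 2245 in the paced samples: K lay above and L and R below all paced samples, and the change of -1.92 (95% confidence interval -3.92 to 0.08) did not pass (adjusted p = 0.143). In K alone CD36 passed as higher, by 0.81 (adjusted p = 0.0194). Falls in the list numbered 11 after quantile normalization (47.8%, beside 14.4% of all genes), 4 in the fit of 6 arrays and 4 with the GAPDH covariate. They numbered 14 without Doberman K, 6 without L, 7 without R, 5 without LV01, 5 without LV02 and 6 without LV04.

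The citric acid cycle and the entry of pyruvate showed the same direction, but few of its genes passed in K. Of 26 tested genes (of 34), 11 fell (42.3%, beside 11% of all genes) and 0 rose (2 by unadjusted p in limma). The median was -0.69 over the Dobermans and -0.12 in K, -1.26 in L and -0.47 in R. After quantile normalization 53.8% of the list fell, beside 14.4% of all genes. SUCLG2, a subunit of succinyl-CoA ligase, had signals of 1364, 569 and 808 in the Dobermans and 2417, 2925 and 2312 in the paced samples and changed by -1.55 ± 0.28 (SE, adjusted p = 0.00231), with -0.89 (adjusted p = 0.0367) in K. MPC1, part of the carrier that brings pyruvate into mitochondria, had signals of 7573, 3499 and 2944 in the Dobermans and 10222, 13708 and 11737 in the paced samples and changed by -1.46 ± 0.28 (SE, adjusted p = 0.00333), with -0.64 (adjusted p = 0.04) in K. For both genes every Doberman lay below every paced sample. DLST, a core enzyme of the oxoglutarate dehydrogenase complex, and PDK1, a kinase that restrains pyruvate dehydrogenase, fell by 1.80 ± 0.42 (SE) and 1.74 ± 0.41, with adjusted p of 0.00874 and 0.00979 in limma. PDK4, a kinase of the same kind that rises with fatty acid use, had signals of 8259.9, 1588 and 8532 in the Dobermans and 9122, 12512 and 12227 in the paced samples and did not pass, with a change of -1.21 (95% confidence interval -2.47 to 0.05). SUCLA2, the partner subunit to SUCLG1 in succinyl-CoA ligase, had signals of 2935, 31.3 and 36.3 in the Dobermans and 1496, 1929 and 2047 in the paced samples. K was the highest of the 6 samples and L and R were near the bottom of the scale. The change of SUCLA2, -3.23 ± 1.07 (SE, adjusted p = 0.0422), was 0.69 in K, and its call was lost without L, R, any paced sample, any control or any Boxer (adjusted p = 0.0541 to 0.169). OGDH, of the oxoglutarate dehydrogenase complex, had signals of 970.5, 17.9 and 54.8 in the Dobermans and 694, 1051 and 786 in the paced samples, with K among the paced samples and L and R far below, changed by -2.67 ± 0.84 (SE, adjusted p = 0.0342) and lost its call without L, R or any paced sample (adjusted p = 0.0686 to 0.138). The number of genes of the list that fell was 17 without Doberman K, 6 without L, 8 without R, 6 without LV01, 4 without LV02 and 6 without LV04, 2 in K alone (7.69%, beside 6.81%), 14 after quantile normalization, 1 in the fit of 6 arrays and 0 with the GAPDH covariate.

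Of 29 tested genes of respiratory complex I, 6 fell (20.7%, beside 11% of all genes) and 0 rose (1 by unadjusted p in limma), with a median of -0.37 and -0.26 in K. NDUFB5 had signals of 5815, 1128 and 4305 in the Dobermans and 7499.7, 8502 and 9917 in the paced samples, with L the lowest, and changed by -1.49 ± 0.42 (SE, adjusted p = 0.0224), a call that was lost without LV02 or LV04 (adjusted p = 0.0585 to 0.0729). NDUFA9 had signals of 8453, 657 and 624 in the Dobermans and 6066, 7251 and 6605 in the paced samples: L and R were low and K was above every paced sample, so its change of -2.11 (adjusted p = 0.038) turned to 0.35 in K. NDUFA9 lost its call without L, R, any paced sample, Boxer 1, Boxer 2 or Boxer 3 (adjusted p = 0.0505 to 0.149). Complex I falls numbered 13 without Doberman K, 2 without L, 7 without R, 2 without LV01, 0 without LV02 and 0 without LV04. They numbered 11 after quantile normalization (37.9%, beside 14.4% of all genes), 0 in the fit of 6 arrays and 2 with the GAPDH covariate. Complexes III and IV had 0 falls and 0 rises among 14 tested genes, and ATP synthase had 0 and 0 among 8, with medians of 0.00 and 0.09. In limma, 1 and 0 genes were lower and 0 and 0 higher by an unadjusted p under 0.05. After quantile normalization 4 and 3 genes of these lists passed as lower (28.6% and 37.5%, beside 14.4% of all genes). They were UQCRC2, UQCRFS1, COX5A and UQCR11, and ATP5F1B, ATP5F1A and ATP5MC1. Of these, ATP5F1B and ATP5MC1 stood above 0 as deposited (0.39 and 0.06). Of 52 tested genes of the mitochondrial ribosome, 9 fell (17.3%, beside 11%) and 2, MRPS12 and MRPL52, rose (3.85%, beside 13.5%), with a median of -0.22 and -0.01 in K. MRPL22 and MRPL1 fell by 2.14 ± 0.43 (SE) and 1.19 ± 0.24, with adjusted p of 0.00456 and 0.00493 in limma, and neither passed in K (-0.85 and -0.63). MRPS12 lost its call without LV01 or LV02 (adjusted p = 0.0516 to 0.0558) and MRPL52 without L, LV01 or LV02 (adjusted p = 0.0572 to 0.0693). Mitochondrial ribosome falls numbered 17 without Doberman K, 7 without L, 7 without R, 6 without LV01, 4 without LV02 and 3 without LV04. They numbered 12 after quantile normalization (23.1%, beside 14.4% of all genes), 0 in the fit of 6 arrays and 0 with the GAPDH covariate. Among 22 tested genes of glycogen breakdown and glycolysis, 4 rose (18.2%) and 2 fell (9.09%) as deposited, beside 13.5% and 11% of all genes. After quantile normalization 2 rose and 3 fell (9.09% and 13.6%, beside 15% and 14.4% of all genes). The rises as deposited were ALDOC, PGAM1, GAPDH and TPI1, enzymes of glycolysis, by 0.50 to 1.20. Calls were lost for ALDOC without L, LV02 or LV04, PGAM1 without L or any paced sample, GAPDH without L, R or any paced sample, TPI1 without L, any paced sample, P1, P4 or any Boxer (adjusted p = 0.0503 to 0.118). PYGM, the phosphorylase of muscle glycogen, had signals of 2464, 274 and 163 in the Dobermans and 3774, 4676 and 4086 in the paced samples. All 3 Dobermans lay below the paced samples, K by little and L and R by much, and the change of PYGM was -3.05 ± 0.65 (SE, adjusted p = 0.00599), with -0.75 (adjusted p = 0.0338) in K. PKM, pyruvate kinase, had signals of 2795, 176 and 136 in the Dobermans and 1837, 2363 and 2503 in the paced samples, with only L and R low, and its change of -2.36 (adjusted p = 0.0376) was 0.33 in K. PKM lost its call without L, R, any paced sample or Boxer 1 (adjusted p = 0.0502 to 0.147). Heart tissue holds several cell types, and fewer muscle cells and less of a transcript per muscle cell cannot be told apart in these samples.

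The direction of the contractile genes depended on the scale. Of 13 tested genes of the thick and thin filaments, 9 rose (69.2%, beside 13.5% of all genes) and 1, ACTA1, fell as deposited, with a median of 0.82. After quantile normalization 1 rose and 1 fell (7.69% each, beside 15% and 14.4% of all genes), with a median of -0.10. MYH7, the slow myosin heavy chain that makes up most ventricular myosin, had signals of 28680, 61099 and 58977 in the Dobermans and 23251, 26259 and 27729 in the paced samples. L and R were high and K lay just above the highest paced sample, with a change of 0.87 ± 0.26 (SE, adjusted p = 0.0292) as deposited that turned to -0.23 (adjusted p = 0.0749) after quantile normalization. TTN, the giant spring protein titin, had signals of 21484, 36550 and 48437 in the Dobermans and 17758, 18644 and 20014 in the paced samples, and its change of 0.84 (adjusted p = 0.0242) was -0.01 after quantile normalization. TNNT2, ACTC1, MYL2 and TNNI3, a troponin, the cardiac actin, a myosin light chain and a second troponin, changed by 0.82, 0.75, 1.01 and 0.99 as deposited, with adjusted p of 0.011 to 0.0303 in limma. After quantile normalization they stood at -0.13, 0.04, -0.01 and -0.10, and none of these 4 passed (adjusted p = 0.328 to 0.953). In K the median of the list was 0.21 and 1 gene, TPM2, passed as higher. TPM2, a tropomyosin, rose on both scales: its signals were 2840, 3031 and 3187 in the Dobermans and 1557, 1531 and 1754 in the paced samples, with a change of 0.90 ± 0.15 (SE, adjusted p = 0.00141) and 0.92 after quantile normalization. The number of genes of the list that rose was 10 without Doberman K, 2 without L, 2 without R, 2 without LV01, 3 without LV02 and 2 without LV04, with 0 in the fit of 6 arrays and 1 with the GAPDH covariate. The other rises were TNNC1, a troponin, and TPM1, a tropomyosin, by 0.97 and 0.74, which stood at -0.11 and -0.10 after quantile normalization. As deposited, calls were lost for MYH7, TTN, TNNT2, ACTC1 and TNNI3 without L, R or any paced sample, TNNC1 without L, R, LV01 or LV04, TPM1 without L, R, any paced sample, any control or any Boxer (adjusted p = 0.0513 to 0.144), and MYL2 and TPM2 kept theirs with any 1 array left out.

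Probe sets of one gene went different ways in L and R. The array carries 6 tested probe sets of MYH7. The next brightest after the one above had signals of 23340.1, 70710.4 and 56439 in the Dobermans and 16952, 17941 and 17308 in the paced samples, and rose. The following 2 had 17074, 2010.3 and 2606 against 13394, 16625 and 14998 and 18042, 899.6 and 1744 against 12349, 15878 and 14191, and both fell, with changes of -1.74 ± 0.55 (SE) and -2.19 ± 0.73. In K the 4 probe sets stood at 0.16, 0.42, 0.19 and 0.36 from the paced mean, and none of them passed there. ATP2A2, the calcium pump of the sarcoplasmic reticulum, had signals of 16977, 31608 and 18341 in the Dobermans and 14124, 16649 and 17578 in the paced samples by its brightest probe set, a change of 0.42 (95% confidence interval -0.08 to 0.91) that did not pass. The third brightest had 12078, 384 and 953 against 6653, 11314 and 9853 and fell by 2.44 ± 0.82 (SE), with K above the paced values. For TTN, 1 of 16 other tested probe sets rose and 2 fell. Among 213 genes with more than 1 called probe set, 69 had calls in both directions, and in K this was so for 26 of 116. The GAPDH ratios were 1.08 in K, 2.10 in L and 3.62 in R, and their part in this disagreement was not tested.

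**Figure D3:**
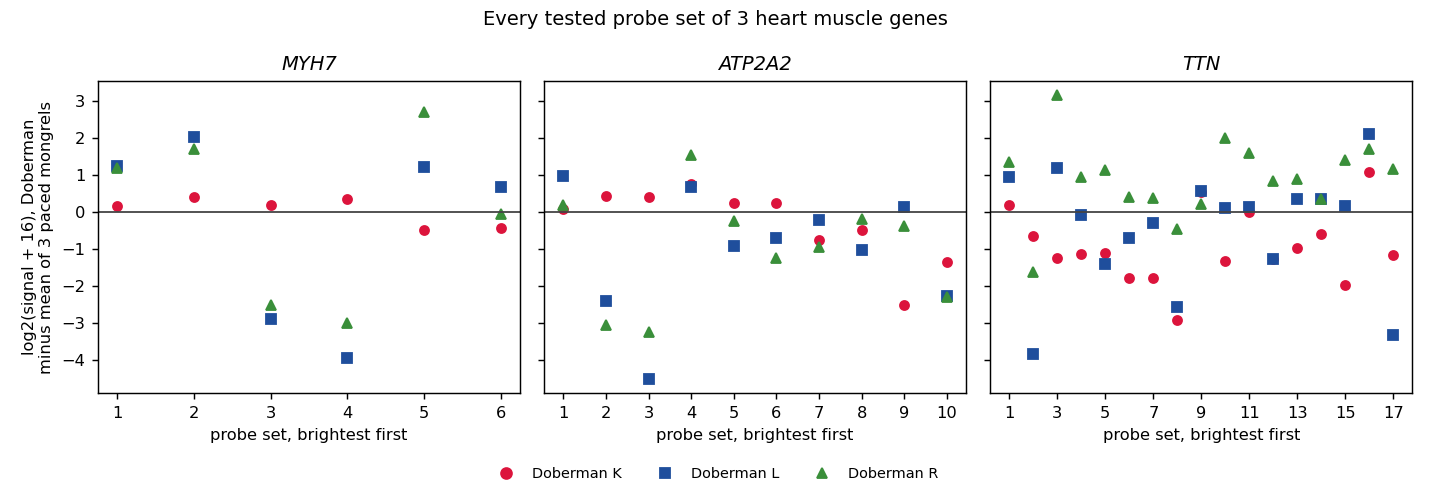
Change of every tested probe set of MYH7, ATP2A2 and TTN in each Doberman, as log2(signal + 16) minus the mean of the 3 paced mongrels, ordered from the brightest probe set on the left. For MYH7 the first 2 probe sets are higher and the next 2 lower in L and R, while those 4 stay near 0 in K.

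FHL2, HRC and CDH2 were lower in all 3 Dobermans than in any paced sample. FHL2, a LIM protein that ties signalling to the sarcomere, had signals of 7645, 7449 and 6505 in the Dobermans and 12440, 15929 and 16312 in the paced samples, with controls at 16284 to 20271. All 3 Dobermans were low and close together, and the change of -1.04 ± 0.18 (SE, adjusted p = 0.00183) also passed in K (-0.95, adjusted p = 0.0101). Of 20 tested genes of the Z-disc, M-band and filament ends, 4 rose (20%, beside 13.5%) and 3 fell (15%, beside 11%) as deposited. After quantile normalization 1 rose and 5 fell (5% and 25%, beside 15% and 14.4% of all genes). The rises as deposited were DES, desmin, TCAP, a titin cap, MYPN and FHL1, by 0.84 to 1.29. After quantile normalization MYPN alone of these passed as higher, while LDB3 and ACTN2 joined the falls, ACTN2 with 0.14 as deposited and -0.42 after it. As deposited, calls were lost for MYPN without L, R or LV04, FHL1 without K, L, LV02, LV04, any control, Boxer 1 or Boxer 2 (adjusted p = 0.0602 to 0.197). PDLIM5 and PDLIM3, adaptors at the Z-disc, fell by 1.78 ± 0.40 (SE) and 1.25 ± 0.29, with adjusted p of 0.00811 and 0.00972 in limma, and did not pass in K (-0.42 and -0.89). HRC, which holds calcium in the sarcoplasmic reticulum, had signals of 1193, 899.5 and 541 in the Dobermans and 2180, 1679 and 2505 in the paced samples, without overlap, and changed by -1.31 ± 0.26 (SE, adjusted p = 0.00413). CACNA1C, the pore of the L-type calcium channel, had signals of 224, 344 and 352 in the Dobermans and 532, 525 and 464 in the paced samples and changed by -0.72 ± 0.23 (SE, adjusted p = 0.0376), a call lost without K, any paced sample, Boxer 3 or Boxer 4 (adjusted p = 0.05 to 0.104). Of 16 tested genes of calcium release and uptake, 3 fell (18.8%, beside 11%) and 0 rose (0 by unadjusted p in limma). The remaining fall was S100A1, a calcium sensor, by 0.84 ± 0.23 (SE, adjusted p = 0.0197), lost without L, LV02 or LV04 (adjusted p = 0.0556 to 0.0677). RYR2, the calcium release channel, had signals of 4793, 3504 and 3269 in the Dobermans and 3960.3, 5032 and 6560 in the paced samples, below every control (7556 to 8946) in both groups, and its change of -0.42 (95% confidence interval -0.87 to 0.04) did not pass. CDH2, the cadherin that joins heart muscle cells, had signals of 64, 56.8 and 145 in the Dobermans and 394, 378 and 243 in the paced samples, and every Doberman lay below every paced sample and every control (216 to 329). It was the one gene of 17 tested in the intercalated disc that fell (5.88%, beside 11% of all genes), by 1.83 ± 0.31 (SE, adjusted p = 0.00189). Signals of CDH2 in K and L were under 108, so the size of its change depends on the 16 units added. Over all alternatives the change ranged from -2.39 to -1.42. GJA1, the main gap junction protein of the ventricle, had signals of 1272, 439.9 and 946 in the Dobermans and 1258, 1306 and 882 in the paced samples, against 5116 to 6441 in the controls. Both groups were far below the controls and overlapped each other, and the change between them was -0.47 (95% confidence interval -1.14 to 0.20, adjusted p = 0.279). DSP, a desmosome protein, stood at 0.23 (95% confidence interval -0.44 to 0.89) and did not pass. KCNH2, a potassium channel of repolarization, had signals of 3606, 6474 and 5211 in the Dobermans and 3388, 2435 and 2242 in the paced samples and rose by 0.90 ± 0.25 (SE, adjusted p = 0.0194), a call lost without L, LV02 or LV04 (adjusted p = 0.0649 to 0.0755).

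Hormone and stress genes that differed were spread over several lists. EDN1, the vessel-constricting peptide endothelin, had signals of 379.7, 624 and 815 in the Dobermans and 64.1, 126 and 208 in the paced samples, with controls at 247 to 279. The Dobermans lay above and the paced samples below all controls, and the change was 2.12 ± 0.37 (SE, adjusted p = 0.00204), with 1.53 (adjusted p = 0.0467) in K. ADRA1A, an alpha adrenergic receptor, had signals of 45.7, 59.1 and 148 in the Dobermans and 211, 241 and 212 in the paced samples and fell by 1.38 ± 0.36 (SE, adjusted p = 0.0152), which did not pass without LV02 (adjusted p = 0.0516). ANKRD1, a stretch-sensing protein of the sarcomere that rises in stressed hearts, had signals of 7696, 10836 and 15517 in the Dobermans and 3527, 4764 and 2681 in the paced samples, with controls at 3781 to 8702. Every Doberman lay above every paced sample, both groups overlapped the controls, and the change of 1.61 ± 0.32 (SE, adjusted p = 0.00403) did not pass in K (1.11, adjusted p = 0.0736). CRYAB, a small heat shock protein of the sarcomere, rose by 1.10 (adjusted p = 0.0153) as deposited and stood at -0.03 after quantile normalization. HSPB1 and HSPB7, small heat shock proteins, rose by 0.71 and 0.69 as deposited and stood at -0.12 and 0.18 after quantile normalization. Calls were lost for CRYAB without L, R or LV01, HSPB1 and HSPB7 without L, R or any paced sample (adjusted p = 0.0504 to 0.118). Of 8 tested cardiac stress genes 5 rose as deposited (62.5%, beside 13.5%). After quantile normalization 2 rose (25%, beside 15% of all genes), UCHL1 and ANKRD1. The number that rose as deposited was 6 without Doberman K, 2 without L, 2 without R, 2 without LV01, 3 without LV02 and 3 without LV04, with 2 in the fit of 6 arrays and 1 with the GAPDH covariate. GABARAPL1, which builds the membranes of autophagy, had signals of 11383, 11187 and 14079 in the Dobermans and 5362, 5103 and 5709.7 in the paced samples. The paced samples lay below every control (8608 to 8974) and the Dobermans above, with a change of 1.17 ± 0.16 (SE, adjusted p = 0.00043) that passed in K (1.08, adjusted p = 0.0014). LAMP1, a lysosome membrane protein, rose by 0.74 ± 0.18 (SE, adjusted p = 0.0104) and did not pass in K (0.37). Of 24 tested genes of autophagy and muscle ubiquitin ligases, 5 rose, the others being GABARAPL2, STUB1 and ASB2, and 4 fell, ASB12, KLHL41, ASB14 and KLHL24. These shares were 20.8% and 16.7%, beside 13.5% and 11% of all genes. After quantile normalization 5 rose and 6 fell (20.8% and 25%, beside 15% and 14.4% of all genes). Calls were lost for GABARAPL2 without L, LV02 or LV04, STUB1 without R, LV02 or LV04, ASB2 and ASB14 without L, R, LV01 or LV04, KLHL41 without L, R, LV01 or LV02, KLHL24 without L, R, any paced sample, P1, P4 or any Boxer (adjusted p = 0.0518 to 0.159).

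HSPB8, a small heat shock protein, had signals of 14979, 21852 and 19620.5 in the Dobermans and 9978, 10413 and 10266 in the paced samples, without overlap, and changed by 0.86 ± 0.16 (SE, adjusted p = 0.00291). BNIP3, which the lack of oxygen induces, had signals of 8593, 8818 and 13819.9 in the Dobermans and 6328, 5279.8 and 5701 in the paced samples and changed by 0.82 ± 0.19 (SE, adjusted p = 0.00821). JUNB, an immediate early transcription factor, had signals of 2833, 2994 and 2683 in the Dobermans and 1455, 665 and 644 in the paced samples and changed by 1.71 ± 0.38 (SE, adjusted p = 0.007). In JUNB the 3 Dobermans were close together, and LV01 was the paced sample nearest to them. PRDX6, a peroxidase, rose by 1.03 ± 0.22 (SE, adjusted p = 0.00563) as deposited and by 0.54 after quantile normalization. SOD2, the mitochondrial superoxide dismutase, had signals of 5766, 648 and 434 in the Dobermans and 6027, 5818 and 7110.3 in the paced samples: K lay just below the paced samples and L and R far below. Its change was -2.40 ± 0.64 (SE, adjusted p = 0.0163) and -0.13 in K, and it did not pass without L, R or LV04 (adjusted p = 0.0533 to 0.0651). ASNS and ATF4, an amino acid enzyme and the transcription factor that induces it, rose by 1.60 ± 0.30 (SE) and 1.16 ± 0.29, with adjusted p of 0.00318 and 0.0121 in limma. In K, ASNS passed (1.84, adjusted p = 0.00649) and ATF4 did not (0.42, adjusted p = 0.114). PSMD3, a proteasome subunit, rose by 1.28 ± 0.27 (SE, adjusted p = 0.0055). Of 23 tested genes of oxidative stress and detoxification, 3 rose (PTGR1, PRDX6 and MT2A, 13% beside 13.5%) and 2 fell (SOD2 and PRDX3, 8.7% beside 11%). PRDX3 lost its call without L, R, any paced sample, any control or any Boxer (adjusted p = 0.0584 to 0.177). Of 9 tested immediate early genes, 2 rose (22.2%, beside 13.5% of all genes), JUNB and IER2, and IER2 lost its call without K, R, LV02 or LV04 (adjusted p = 0.0583 to 0.0993). Of 15 tested genes of the endoplasmic reticulum, ASNS and ATF4 rose and PDIA3 fell, shares of 13.3% and 6.67% beside 13.5% and 11% of all genes. Of 33 tested proteasome genes, 4 rose (PSMD3, PSME2, PSMD2 and PSMD5) and 3 fell (PSMA6, PSMG2 and PSMA3), shares of 12.1% and 9.09% beside 13.5% and 11% of all genes. After quantile normalization 4 proteasome genes rose and 6 fell (12.1% and 18.2%, beside 15% and 14.4% of all genes). As deposited, calls were lost for PSMD2 without R, any paced sample, Boxer 2 or Boxer 3, PSMD5 without L, R, any paced sample, P1, P4 or any Boxer, PSMG2 without L, LV02 or LV04, PSMA3 without L or any paced sample (adjusted p = 0.0501 to 0.141). Of 29 tested chaperone genes, HSPB8 and HSPB1 rose and STIP1 and CCT8 fell, shares of 6.9% and 6.9% beside 13.5% and 11% of all genes. Calls were lost for HSPB1 and STIP1 without L, R or any paced sample, CCT8 without L, R, LV01 or LV04 (adjusted p = 0.0506 to 0.135). Of 6 tested genes of the p53 response, CDKN1A alone rose over the 3 Dobermans (16.7%, beside 13.5% of all genes). CCNG1, another target of p53, had signals of 7019, 554 and 503 in the Dobermans and 3297, 4526 and 3810 in the paced samples, with K above and L and R below the paced samples, and did not pass over the 3 (adjusted p = 0.101).

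Matrix genes and markers of other cell types differed in part. Of 39 tested genes of matrix proteins and enzymes (of 68), 3 rose and 0 fell (1 by unadjusted p in limma), a share of 7.69% higher beside 13.5% of all genes, with a median of 0.18. Matrix genes that rose after quantile normalization numbered 6 (15.4%, beside 15% of all genes), and 0 rose in the fit of 6 arrays and 3 with the GAPDH covariate. As deposited the rises were DCN, COL5A1 and COL4A2, and COL5A1 lost its call without L, LV01 or LV02 (adjusted p = 0.0529 to 0.1) and COL4A2 without K, L, LV01, LV02, P1, P4 or any Boxer (adjusted p = 0.0502 to 0.155). By Doberman the median stood at 0.79 (K), 0.27 (L) and -0.10 (R), and 7 genes passed as higher in K (17.9% beside 8.13%). COL1A1 and COL3A1, the main fibrillar collagens, did not pass. COL1A1 had signals of 1798, 823 and 665 in the Dobermans and 795, 499 and 1738 in the paced samples, a change of 0.17 (95% confidence interval -1.16 to 1.49). COL3A1 had signals of 2217, 171 and 381 in the Dobermans and 806, 1108 and 1679 in the paced samples, with K the highest and L and R the lowest, a change of -1.08 (95% confidence interval -2.61 to 0.45). DCN, decorin, a proteoglycan that coats collagen, had signals of 12285, 22124 and 15968 in the Dobermans and 9496, 8427 and 8517 in the paced samples, without overlap, and changed by 0.89 ± 0.21 (SE, adjusted p = 0.0102), though it did not pass in K (0.48, adjusted p = 0.106). The number of matrix genes that rose was 3 without Doberman K, 1 without L, 7 without R, 1 without LV01, 1 without LV02 and 4 without LV04. Among 11 tested genes of smooth muscle and pericytes, 4 rose (36.4%, beside 13.5%) and 0 fell (1 by unadjusted p in limma). Beside MCAM they were SYNPO2, an actin-binding protein, with signals of 1002, 499.6 and 463 in the Dobermans and 172, 284 and 191 in the paced samples, CRIP1, a LIM protein, with 7842, 21631 and 15585 in the Dobermans and 4304, 4140.5 and 5603 in the paced samples, and ACTA2, smooth muscle actin, with 12638, 8044 and 14544 in the Dobermans and 6889, 5826 and 4225 in the paced samples. SYNPO2 and CRIP1 changed by 1.48 ± 0.29 (SE) and 1.57 ± 0.31, with adjusted p of 0.0037 and 0.00398 in limma. ACTA2 changed by 1.04 ± 0.28 (SE, adjusted p = 0.0178) and did not pass without R or LV04 (adjusted p = 0.0621 to 0.0786). The summed signal of the list was 41166 to 48056 in the Dobermans and 25266 to 30319 in the paced samples. Endothelial genes numbered 3 rises among 11 tested, TEK, NOS3 and TIE1, with changes of 0.79, 1.03 and 0.71, a share of 27.3% beside 13.5% of all genes. Endothelial rises numbered 5 without Doberman K, 1 without L, 1 without R, 0 without LV01, 0 without LV02 and 1 without LV04. They numbered 3 after quantile normalization (27.3%, beside 15% of all genes), 0 in the fit of 6 arrays and 0 with the GAPDH covariate. Calls were lost for TEK without L, LV01 or LV02, NOS3 without L, R or any paced sample, TIE1 without L, R, any paced sample, any control, Boxer 1, Boxer 2 or Boxer 3 (adjusted p = 0.0505 to 0.159). The summed signal of the endothelial list was 18443 to 26959 in the Dobermans and 14829.9 to 19524 in the paced samples.

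Among immune genes the lists differed, and the share of macrophage and monocyte genes that rose was near that of all genes. CCL2, which draws monocytes, had signals of 2103, 783 and 753 in the Dobermans and 509.8, 269 and 405 in the paced samples, with K the highest, and changed by 1.46 ± 0.41 (SE, adjusted p = 0.022), a call lost without LV02 or LV04 (adjusted p = 0.0527 to 0.0859). CD14, a receptor of monocytes for bacterial products, had signals of 1401, 998 and 537 in the Dobermans and 274, 364 and 344 in the paced samples and changed by 1.44 ± 0.48 (SE, adjusted p = 0.0437). Its call was lost without K, L, any paced sample, P1, P4, Boxer 1 or Boxer 2 (adjusted p = 0.0539 to 0.121). These were the 2 of 15 tested macrophage and monocyte genes that rose, 13.3% beside 13.5% of all genes, and 0 fell. The summed signal of that list was 4698 to 13639.6 in the Dobermans and 5294 to 6136 in the paced samples. Markers of lymphocytes went both ways: of 7 tested, CD3E and CCL5 rose and NKG7 fell (28.6% and 14.3%, beside 13.5% and 11% of all genes). CCL5, a chemokine of T cells, had signals of 312, 364 and 552 in the Dobermans and 112, 73 and 184 in the paced samples and changed by 1.65 ± 0.35 (SE, adjusted p = 0.00599). IL1RN, the natural blocker of interleukin 1, had signals of 351, 188 and 311 in the Dobermans and 48, 49.4 and 139.6 in the paced samples and changed by 1.74 ± 0.38 (SE, adjusted p = 0.00651). SERPING1, which restrains complement, and STAT3, a transcription factor of cytokine signals, rose by 1.10 ± 0.28 (SE) and 0.88 ± 0.24, with adjusted p of 0.013 and 0.0203 in limma. SERPING1 did not pass without LV01 (adjusted p = 0.0601), nor STAT3 without LV01 or LV04 (adjusted p = 0.0657 to 0.0696). With CLU, these 3 were the 4 of 15 tested genes of cytokines and the acute phase that rose, 26.7% beside 13.5%.

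Interferon-induced genes were high in Doberman K, while L and R lay near the paced samples. MX1, an antiviral protein that interferon induces, had signals of 6731, 650.4 and 532 in the Dobermans and 447, 234 and 454 in the paced samples, with controls at 313 to 718. K was the highest of all 13 arrays, with a change of 4.16 (adjusted p = 0.000858) against the paced samples. OAS2 and MX2, further antiviral proteins, had signals of 1222, 207 and 178 and of 1819, 489 and 208 in the Dobermans, against 116, 169 and 217 and 304, 266 and 278 in the paced samples. ISG15, a ubiquitin-like protein of the same response, had signals of 2251, 61.6 and 271 in the Dobermans and 378, 240 and 409 in the paced samples, and L was below every paced sample. CXCL10, a chemokine, had signals of 1003, 57.3 and 288 in the Dobermans and 229, 256 and 286 in the paced samples. In K, 5 of 6 tested interferon genes (of 32) passed as higher, 83.3% beside 8.13% of all genes, and over the 3 Dobermans 0 passed as higher and 0 as lower in limma (1 and 0 by unadjusted p). The median change over the list was 2.66 for K, 0.24 for L and 0.07 for R. TAP1, the peptide transporter of MHC class I, had signals of 716, 37.6 and 201 in the Dobermans and 153, 239.8 and 222 in the paced samples, and C1QC, a complement chain of macrophages, had 1069, 377 and 136 in the Dobermans and 239, 203 and 279 in the paced samples, again with K above the other arrays of both groups. K is 1 sample, so these values describe that sample; L and R, its fellow Dobermans, differ from it in RNA quality too, and the part of that in the difference was not tested.

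**Figure D4:**
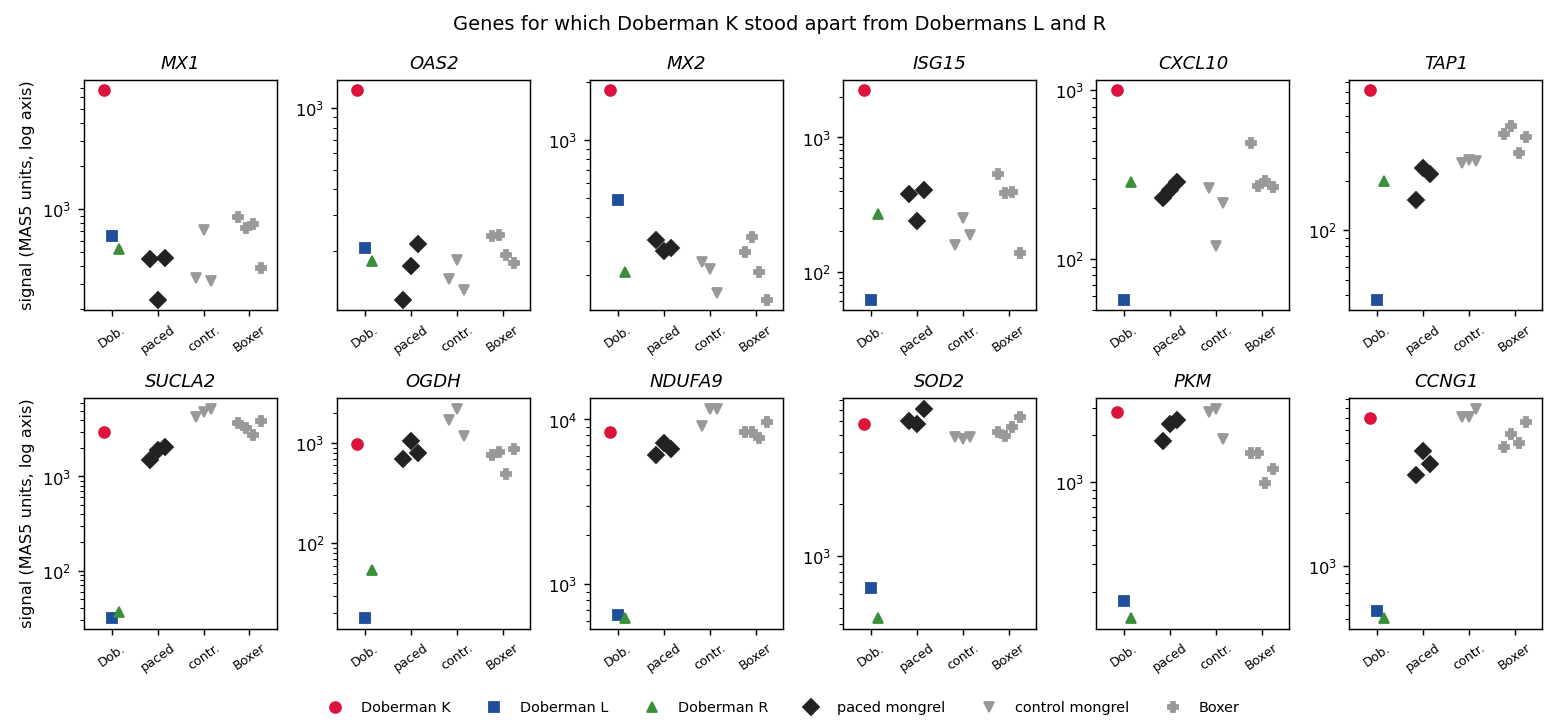
Signal of 12 genes on each of the 13 arrays, on a log axis in MAS5 units. In the upper row Doberman K stands above all other arrays; in the lower row Dobermans L and R stand below all other arrays while K lies among, above or, for SOD2, just below the paced mongrels.

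**Figure D5:**
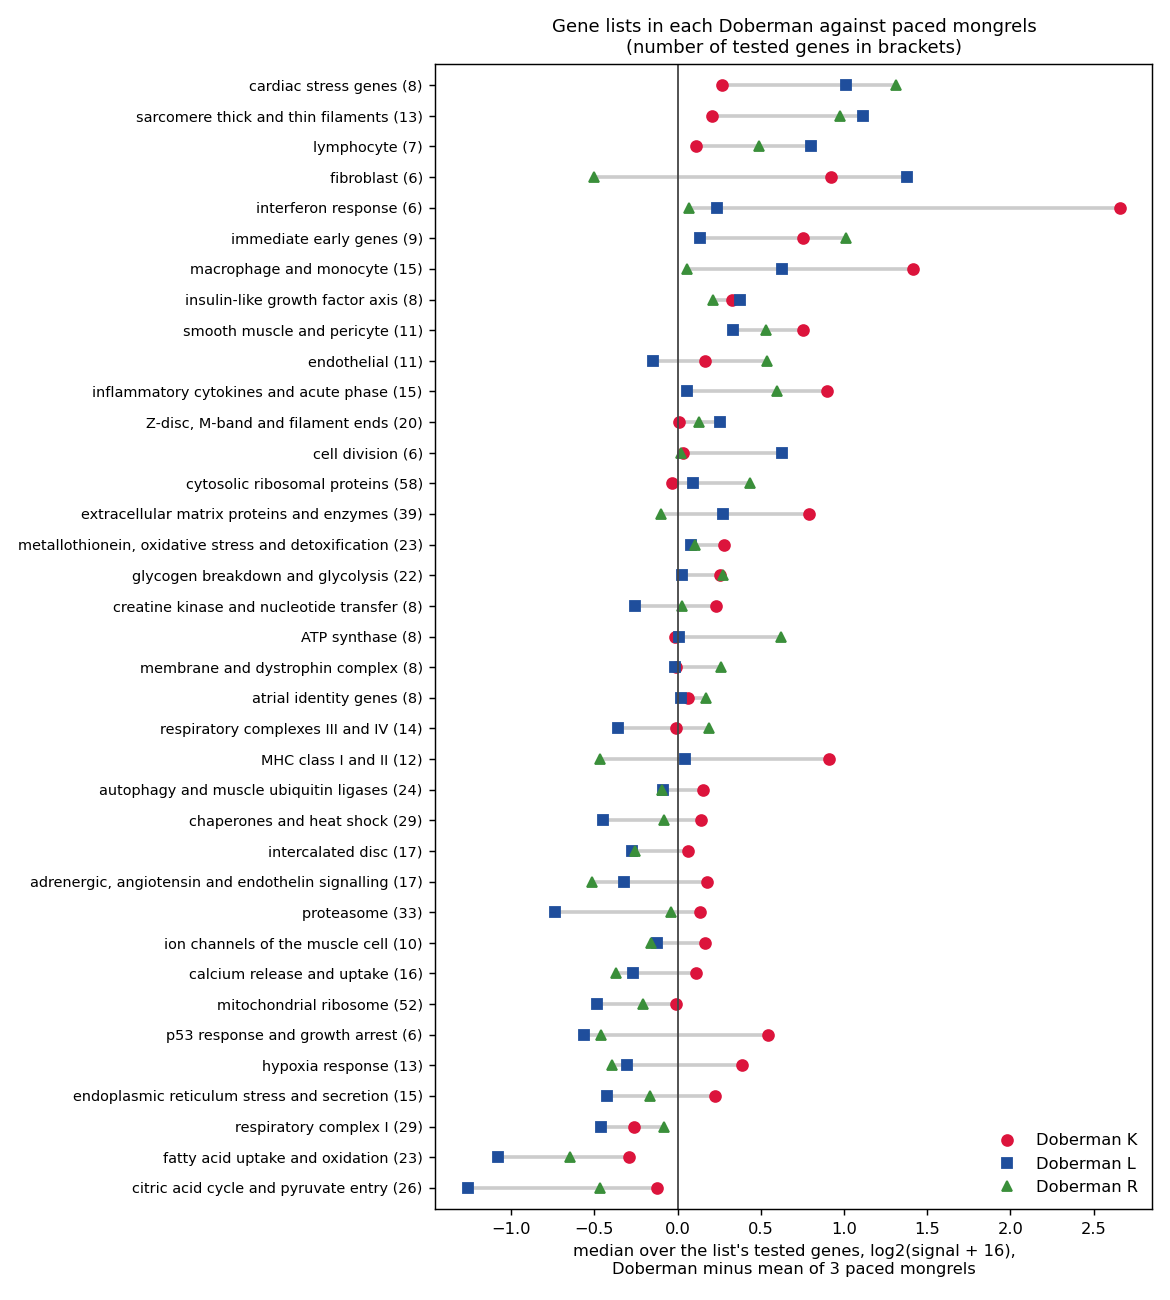
Median over each gene list of the change in log2(signal + 16), 1 point per Doberman against the mean of the 3 paced mongrels, for lists with at least 6 tested genes. The 3 Dobermans lie furthest apart for interferon response (K 2.66, L 0.24, R 0.07), and all 3 lie below 0 for fatty acid uptake and oxidation, citric acid cycle and pyruvate entry and respiratory complex I.

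In 94 genes that passed as deposited, the groups lay on opposite sides of all 3 controls on both scales, 66 with Dobermans above and 28 with Dobermans below. The share of such genes over all tested genes is not given here. The 4 largest of each kind were MAP1A, CD3E, CYP4A11 and C2, and UBE2J1, FUNDC1, MIA3 and ARHGAP18. ARHGAP18 had signals of 239, 219 and 18.6 in the Dobermans and 492, 602 and 576 in the paced samples, with R the lowest and controls at 327 to 407, and changed by -2.16 ± 0.54 (SE, adjusted p = 0.0129). CYP4A11 had signals of 353, 681 and 905 in the Dobermans and 34.8, 27.1 and 79.3 in the paced samples, with controls at 201 to 297. For MAP1A the 4 Boxers lay at 134 to 343, and for CD3E at 199.8 to 389, between the Dobermans and the paced samples. Both comparisons with the controls share the control samples, so the 2 sides are given as levels and were not tested as a relation.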

How the data were processed

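Total RNA from 13 dog heart samples was extracted with Trizol, cleaned on RNeasy columns and hybridised to Affymetrix canine arrays, per the labels' protocols. The deposited values are linear signal intensities that the authors made with MAS5, per the submitters' processing notes, with the version not given in the sources used here. MAS5 subtracts mismatch probes and scales each array. The trimmed mean, which leaves out the brightest and dimmest probe sets, was 500.1 on all 13 arrays. Uneven RNA quality could still shift the values of an array, which was not tested. The 77 control probe sets were set aside, 16 was added and log2 taken. Probe sets were kept where their mean reached the 40th percentile, equal to a signal of 108, which left 14302. In limma 3.58.1 (R 4.3.3) group means were fitted over all 13 arrays, with 9 residual degrees of freedom, and Dobermans minus paced mongrels was tested with moderated statistics, a trend and Benjamini-Hochberg adjustment over all tested probe sets at 0.05, as deposited and after quantile normalization. The fit takes the spread of a probe set as equal in all groups. How well its p-values hold with the wider spread of the Dobermans was not tested. Gene names came from the platform's annotation: 10549 probe sets had 1 symbol, 138 several and 13149 none. A gene is its tested probe set of highest mean signal. Named were the 12 largest rises and falls that passed without overlap on both scales, up to 4 members of each list by smallest p, 16 genes chosen whatever their result (MYBPC3 was not analysed here) and the 4 largest each way on opposite sides of the controls. 1 of the 12 rises is not reported here. The brighter genes, and further members of short counts, were named after their values were seen. The comparison and the 42 gene lists were chosen with earlier results of these data known. No 2 arrays held identical values (0 of 78 pairs, highest r 0.967). Alternatives varied the scaling, filter, added constant, arrays fitted, weights and GAPDH covariate. Array signal has no read depth, so the number of arrays limits precision.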

Additional observations from a re-analysis of the deposited data

Results flagged for a closer look

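In 8 genes the Dobermans and the paced mongrels lay on opposite sides of every control array. The changes were 4.48 for MAP1A, 4.19 for CD3E, 3.38 for CYP4A11 and 3.21 for C2, and -2.52 for UBE2J1, -2.51 for FUNDC1, -2.21 for MIA3 and -2.16 for ARHGAP18, in log2 units as Dobermans minus paced samples. These are the 4 largest each way of 94 such genes, and the difference between the 2 groups' effects against the controls is the contrast of Dobermans and paced samples itself, with adjusted p of 5.61e-06 to 0.0129 in limma.

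Control probe sets outside the comparison differed too. The 18 probe sets for spiked-in transcripts, which serve as controls of labelling and hybridisation, had a mean signal of 7589.7 in the paced mongrels and 3435 in the Dobermans, against 2043 in the controls and 1893 in the Boxers. The exact permutation test between Dobermans and paced samples gave p = 0.2, two-sided, where 0.1 is the smallest possible. The GAPDH control probe sets gave a ratio of 3′ to 5′ signal of 2.10 in Doberman L and 3.62 in R, above all controls. The part of either measure in the gene changes was not tested beyond the fit with the GAPDH ratio as a covariate.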

How the results depend on the processing

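Counts of probe sets were 2880 higher and 3094 lower as deposited and 3427 and 3370 after quantile normalization with no filter, 907 higher and 840 lower as deposited and 892 and 1093 after quantile normalization with a filter at the 70th percentile, and 708 higher and 579 lower as deposited and 780 and 746 after quantile normalization with 1 probe set per gene and p adjusted over genes, where adjustment over all probe sets gives 787 and 754 genes after quantile normalization. In a fit of the 6 compared arrays alone they were 326 higher and 198 lower as deposited and 526 and 329 after quantile normalization, and with the GAPDH ratio as a covariate 455 higher and 573 lower as deposited and 675 and 562 after quantile normalization. Without L and R they were 946 higher and 1319 lower as deposited and 1301 and 1181 after quantile normalization, and median centring gave 1126 lower in place of 2073 after quantile normalization. Leaving out 1 array at a time gave 1200 to 3281 higher and 921 to 2902 lower as deposited, and 1650 to 3342 and 1289 to 3426 after quantile normalization, the lowest without a paced sample and the highest without K. For the array measures the range was 0.51 to 1.42 for the difference in log2 actin ratio, 0.613 to 1.88 for the GAPDH ratio, -23.0 to 14.0 for median signal, -0.0807 to -0.0702 for the correlation within a group and -5282 to -3013 for spike-in signal, each without 1 replicate. Alternatives were followed for 149 called genes, most but not all of them named in the text. Of these, 132 kept their call after quantile normalization, 130 after median centring, 126 with array weights, 135 with robust moderation and no trend, 44 in the fit of 6 arrays and 45 with the covariate. With 1 or 64 units added in place of 16, 145 of 148 and 148 of 149 did, with no filter 146, and of 112 bright enough for the 70th percentile 108. Among genes called in either fit, signs turned after quantile normalization for ACTN2 at -0.42, ATP5F1B at -0.27, ATP5MC1 at -0.46, CRYAB at -0.027, HSPB1 at -0.12, MYH7 at -0.23, MYL2 at -0.0097, TNNC1 at -0.11, TNNI3 at -0.10, TNNT2 at -0.13, TPM1 at -0.10 and TTN at -0.0070. They turned without L and R for CCNG1 at 0.87, CCT8 at 0.092, CD36 at 0.81, EGLN3 at 1.11, ITGB1 at 1.40, MFAP5 at 0.030, NDUFA9 at 0.35, OGDH at 0.22, PKM at 0.33, PRDX3 at 0.087, SUCLA2 at 0.69 and TAP1 at 1.75, and with the covariate for NDUFA9 at 0.14, PKM at 0.23, PRDX3 at 0.055 and SUCLA2 at 0.31. Of genes called in neither fit, signs turned after quantile normalization for ATP2A2 at -0.11 and DSP at -0.0080, without L and R for ACTN2 at -0.071, ATP5F1A at 0.041, COL3A1 at 0.94, GJA1 at 0.17 and UQCRFS1 at 0.30 and with the covariate for CCNG1 at 0.67, COL3A1 at 0.43, EGLN3 at 0.89, ITGB1 at 1.23, TAP1 at 1.09 and UQCRFS1 at 0.24, and under other alternatives for ATP5F1A, ATP5MC1, C1QC, COL1A1, CXCL10, DSP, ISG15, TAP1 and UQCR11; the cause was not tested. No paired analysis was possible because the groups share no replicate numbers. With 3 arrays a group and 9 residual degrees of freedom, small changes were not detectable, and dim probe sets have values near the background of the array.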

Other observations

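Of 58 tested genes of cytosolic ribosomal proteins, 8 rose (13.8%, beside 13.5% of all genes) and 2 fell (3.45%, beside 11%) as deposited. After quantile normalization 4 rose and 8 fell (6.9% and 13.8%, beside 15% and 14.4% of all genes). The medians were 0.19 as deposited and -0.01 after quantile normalization. RPL10A and RPS10, which passed on both scales, rose by 2.51 ± 0.43 (SE) and 1.80 ± 0.41, with adjusted p of 0.00197 and 0.00837 in limma. Many ribosomal protein genes have near-identical processed copies, so their probe sets are uncertain. Of 12 tested genes of MHC class I and II, 1 rose (8.33%, beside 13.5% of all genes), DLA-DOA, a class II modifier of antigen loading. DLA-DOA had signals of 372, 674 and 465 in the Dobermans and 209, 149 and 162 in the paced samples, without overlap, and changed by 1.43 ± 0.29 (SE, adjusted p = 0.00498). The list's median change was 0.91 for K, 0.05 for L and -0.47 for R. Of 6 tested fibroblast genes, DCN and S100A4 rose and MFAP5, a microfibril protein, fell (33.3% and 16.7%, beside 13.5% and 11% of all genes). S100A4, a calcium-binding protein of motile cells, had signals of 1077, 1089.6 and 721 in the Dobermans and 411, 201 and 302 in the paced samples and changed by 1.64 ± 0.40 (SE, adjusted p = 0.012), a call lost without LV02 (adjusted p = 0.0532). MFAP5 had signals of 2719, 792 and 738 in the Dobermans and 2742, 2562 and 2689 in the paced samples, with K among the paced samples, and lost its call without L, R, any paced sample, any control, Boxer 1, Boxer 2 or Boxer 3 (adjusted p = 0.0512 to 0.155).

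Among other bright genes, ITGB1, an integrin chain, had signals of 5580.4, 636 and 584 in the Dobermans and 1933, 2403 and 2000.1 in the paced samples, and EGLN3, an oxygen sensor, had 3109, 177 and 177 in the Dobermans and 1335, 1359 and 1617 in the paced samples. In both, K was the highest of the 6 samples and L and R the lowest, and neither passed over the 3 Dobermans (adjusted p = 0.399 and 0.136 in limma). IGFBP4, a carrier of insulin-like growth factors, rose by 0.70 ± 0.22 (SE, adjusted p = 0.0339), and PIK3R1, a regulator of insulin signalling, fell by 0.98 ± 0.27 (SE, adjusted p = 0.0199). Calls were lost for IGFBP4 without K or any paced sample, PIK3R1 without LV01 or LV02 (adjusted p = 0.0564 to 0.0962). PPARG, a regulator of fat cells, rose by 0.94 ± 0.28 (SE, adjusted p = 0.0272), with a call lost without L, R, LV01 or LV02 (adjusted p = 0.0806 to 0.0815). It was the one of 5 tested fat cell genes that passed (20%, beside 13.5% of all genes).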
